A study of Brassica rapa subsp. rapa with 9 samples.

Results

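The redox and oxidoreductase genes of turnip skin were followed in organs exposed to UV-B, UV-A or blue light and in organs kept dark. Members were the array probes whose deposited names mention oxidoreductase, peroxidase, glutathione, thioredoxin, glutaredoxin, catalase or ascorbate, without a set of named genes such as the peroxidase PRXR1, several stress glutathione transferases, flavonoid enzymes, fatty acid desaturases and cytochrome P450 genes. The rule found 91 of 2507 tested probes, carrying 39 of 1195 names. All 91 passed the filter on dim spots, but so did all 2507, so passing it does not show signal. By name text, 1 probe was a catalase, 7 probes belonged to ascorbate enzymes, 24 to glutathione enzymes, 1 to a glutaredoxin, 12 to peroxidases and 46 to other oxidoreductases. No member was placed as a thioredoxin. Of the 39 names, 22 had 1 probe and 17 had more, up to 13 for the glutathione transferase ATGSTF9.

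Swollen hypocotyls, the storage organ of turnip (Brassica rapa subsp. rapa), came from the red cultivar 'Tsuda'. Treated organs received UV-B, UV-A or blue light for 24 h, and the controls stayed in darkness. RNA came from the outermost tissue, peeled at a thickness of roughly 1 to 2 mm. Each of the 9 spotted cDNA arrays held 1 exposed sample in Cy3 and 1 dark sample in Cy5, with 3 arrays per light, and each biological replicate pooled tissue of over 5 plants. No genotype other than the cultivar and no plant age is given in the sources used here.

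Plant cells make reactive oxygen species in respiration, in photosynthesis and under light stress, and remove them with linked enzymes. Catalase breaks hydrogen peroxide down directly. Ascorbate peroxidase reduces it with ascorbate, which dehydroascorbate reductase regenerates at the expense of glutathione. Glutathione transferases attach glutathione to reactive compounds, glyoxalase I uses it to clear methylglyoxal, and secreted peroxidases act on phenolics in the cell wall. Dehydrogenases that make NADPH supply the reducing power. UV-B is known to raise reactive oxygen in plant tissue.

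The light channel was above background, meaning a foreground of at least 1.5 times the local background, for 63 to 91 of the 91 members on an array. Across members, log2(light/dark) of replicate arrays correlated at 0.341 to 0.667 for UV-B, 0.413 to 0.657 for UV-A and 0.232 to 0.441 for blue light, as a description over probes that share their arrays. Spots without a clone were above background in 2.22% to 7.41% of cases on the arrays numbered 1 and 2, but in 52.6% to 99.3% on the 3 arrays numbered 3. The array numbered 3 was the highest of its light in all 3 lights for 22 members (24.2%), against 11.6% of all probes, and the lowest in all 3 for 3 members (3.3%), against 11.2%. The part of these bright empty spots in the results was not tested. Values without the array numbered 3 are given beside several of the members described here. Markers of red skin (CHS, DFR, F3H and LDOX) were above background on all 9 arrays for 10 of 13 probes in the light channel and 10 in the dark channel. For wounded or infected tissue (PR4 and ATHCHIB) this held for 5 of 7 probes in each channel. For myrosin cells (TGG1, MBP1 and MBP2) it held for 13 of 19 probes in the light channel and 16 in the dark channel. The 2 LHCB2.1 probes of green tissue and the 10 probes of root genes (ATEXT3, ATEXT4, PIP1B and PIP3) were above background throughout. A mix of cell types in the peel cannot be told apart from a change per cell.

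UV-B against darkness gave the most calls among the members. At an adjusted p under 0.05 in limma, 13 probes (11 names) were higher and 6 (5 names) lower in UV-B, or 20.9% of the members, against 24.7% of all probes (10.8% higher and 13.9% lower). The members' share was therefore near the background. Their median log2(UV-B/dark) was 0.04, against 0.01 over all probes, with a range from -2.05 to 2.39. All 3 UV-B arrays were above 0 for 33 members (36.3%, against 28.2% of all probes) and below 0 for 15 (16.5%, against 27.3%). Among the 19 called probes, 17 had all 3 arrays on one side of 0, which is no further support, since the same arrays gave the calls.

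Blue light and UV-A gave few calls. In blue light 1 member was called, and it was lower, against 3.47% of all probes (1.12% higher and 2.35% lower). In UV-A 1 member was higher and 1 lower, against 3.19% of all probes (1.12% higher and 2.07% lower). The members' median log2 was 0.12 in blue light (all probes 0.02) and 0.06 in UV-A (all probes -0.00095). With the replicate number as a block, 15 members were called in blue light (16.5%, against 16.1% of all probes), 16 in UV-A (17.6%, against 11.1%) and 27 in UV-B (29.7%, against 32.8%). The members' shares in blue light and UV-B stayed near those of all probes. All comparisons with darkness carry any dye bias of a probe, since the light sample was always in Cy3, and dye and light cannot be told apart there. In differences between lights that bias cancels.

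**Figure D1:**
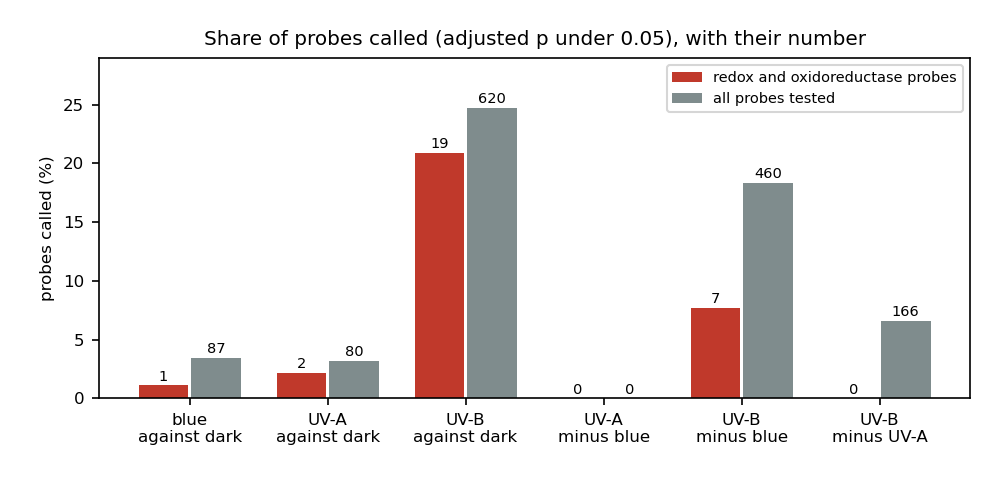
Share of probes called at an adjusted p under 0.05 (vertical axis, percent) in each of the 6 comparisons, for the 91 members and for all 2507 probes. In UV-B against darkness the share was 20.9% of members and 24.7% of all probes, and in UV-B minus blue it was 7.69% and 18.3%.

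Among the ascorbate enzymes, APX1 rose in UV-B and, on 1 of its 2 probes, in UV-A. APX1 encodes the cytosolic ascorbate peroxidase. On its probe 549, log2(UV-B/dark) was 1.24, 1.53 and 2.39 on replicates 1, 2 and 3. In UV-A the values were 1.48, 1.16 and 1.34, and in blue light 0.84, -0.32 and 0.38. All 6 UV arrays stood above all 3 blue arrays, and the UV-A and UV-B values overlapped. The rise in UV-B was 3.29-fold (log2 1.72 ± 0.303 SE, n = 3, limma adjusted p = 0.00201). In UV-A it was 2.51-fold (log2 1.33 ± 0.303, n = 3, limma adjusted p = 0.0395). In blue light the mean log2 was 0.30, which was not called (limma adjusted p = 0.558).

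The second and brighter APX1 probe, 964, gave 0.89, 2.04 and 1.08 in UV-B, 1.20, 1.08 and 0.93 in UV-A and 0.58, 0.33 and 0.69 in blue light. Again no UV value lay within the blue range. Its foreground intensity on the brightest UV-B array was 33279 in the light channel and 16737 in the dark channel, over backgrounds of 168 and 155. It rose 2.52-fold in UV-B (log2 1.33 ± 0.275, limma adjusted p = 0.00473), while its UV-A value of 1.07 missed the threshold (adjusted p = 0.0572) and passed with the replicate block (adjusted p = 0.0301). Both UV-B calls of APX1 held in all 21 alternatives, although the alternative without a filter on dim probes repeats the main fit. The UV-A call of probe 549 did not. Its adjusted p was 0.214, 0.182 and 0.172 without UV-A replicate 1, 2 or 3, and 0.0542 without UV-B replicate 1.

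The other ascorbate enzymes were not called in any comparison with darkness. AT5G16710, a dehydroascorbate reductase, gave 0.50, 0.82 and 1.20 in UV-B (mean log2 0.84, adjusted p = 0.0681), with all 3 arrays above 0. The dehydroascorbate reductase AT1G19570 gave, on its brighter probe 1012, 0.98, -0.30 and 2.01 in blue light and 1.49, -0.31 and 2.04 in UV-A, while its UV-B values stayed between -0.22 and 0.23. Replicate 2 lay below 0 in both blue light and UV-A, and the means of 0.90 and 1.07 were not called (adjusted p = 0.246 and 0.219). Over replicates 1 and 2 alone the means were 0.34 and 0.59. Its probe 2777 was highest on replicate 3 in every light, reaching 3.33 in UV-A, where the mean was 1.48 with that array and 0.55 without it. The 2 probes of APX3, another ascorbate peroxidase, had means between -0.50 and 0.62.

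Catalase and glutaredoxin were each represented by a single probe. CAT3 gave -0.97, -1.61 and 0.28 in UV-B, against 0.05 to 0.79 in UV-A and -0.41 to 0.45 in blue light. The UV-B arrays fell on both sides of 0 and overlapped the blue arrays. The mean of -0.77 was not called (adjusted p = 0.136) and was -1.29 over replicates 1 and 2, and the probe had saturated spots, so its size is not exact. The glutaredoxin AT5G20500, whose family reduces disulfides with glutathione, gave 0.34, 0.19 and 1.05 in UV-B, 0.46, -0.11 and 0.91 in UV-A and 0.19, -0.10 and 1.53 in blue light. Its 3 lights overlapped, with replicate 3 the highest in each, and its mean in UV-B was 0.53 (adjusted p = 0.302), or 0.27 over replicates 1 and 2.

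Glutathione enzymes gave 3 called rises and 1 called fall in UV-B among 24 probes (16.7%, against 24.7% of all probes). ATGSTZ1, a zeta-class glutathione transferase that acts as maleylacetoacetate isomerase in tyrosine breakdown, gave 2.41, 0.93 and 2.51 in UV-B on its probe 1877. In UV-A it gave 0.71, 1.82 and 0.80 and in blue light -0.16, 1.28 and 1.49. The 3 lights overlapped, and the rise against darkness was 3.86-fold (log2 1.95 ± 0.404, n = 3, limma adjusted p = 0.00482). Without UV-B replicate 1 or 3 the adjusted p was 0.0504 and 0.0545. The brighter ATGSTZ1 probe, 2313, gave -0.04, 1.37 and 0.46 in UV-B and was not called (mean log2 0.60, adjusted p = 0.298).

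AT1G08110, named as a lactoylglutathione lyase (glyoxalase I), gave 1.94, 0.32 and 2.41 in UV-B. In UV-A it gave 0.33, 0.89 and 0.35 and in blue light -0.06, 0.01 and -1.17. Every UV-B value was above every blue value, but replicate 2 of UV-B lay below all 3 UV-A arrays. The rise in UV-B was 2.95-fold (log2 1.56 ± 0.387, limma adjusted p = 0.0128). Plain background subtraction gave 1.18 and an adjusted p of 0.173, and leaving out UV-B replicate 1 or 3 gave 0.0946 and 0.13. Without UV-B replicate 2 the value was 2.18 (adjusted p = 0.00247). The glyoxalase I homolog ATGLX1 moved the other way on its dimmer probe 2135, with -1.84, 0.34 and -2.06 in UV-B against 0.19 to 0.84 in the 6 other arrays. That fall by 1.19 ± 0.395 on the log2 scale passed the test (limma adjusted p = 0.0468) with arrays on both sides of 0, and no longer passed without UV-B replicate 1 (-0.86, adjusted p = 0.274) or 3 (-0.75, adjusted p = 0.327). Without UV-B replicate 2, the array above 0, it was -1.95 (adjusted p = 0.00144). Leaving out any UV-A array or blue replicate 1 or 2 also ended that call, with adjusted p between 0.0575 and 0.0672. The brighter ATGLX1 probe, 459, had a mean of 0.07 in UV-B, and the third lyase, AT1G67280, also 0.07.

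ATGSTF7, a phi-class glutathione transferase, lay lower in blue light than in UV-B. Its probe 2203 gave 1.88, 0.76 and 0.62 in UV-B, -0.16, 0.25 and 0.70 in UV-A and -0.37, -0.85 and -2.08 in blue light. The blue arrays were all below 0, the UV-B arrays all above 0, and UV-A lay between with 1 array inside the UV-B range. Against darkness the UV-B mean was 1.09 ± 0.364 (2.12-fold, limma adjusted p = 0.048). That call was lost under 11 of 21 alternatives, among them each left-out UV-B array (adjusted p = 0.316, 0.0763 and 0.089) and each left-out UV-A array (0.0594 to 0.0643), and blue replicate 2 (0.0586). The brighter probe 2221 gave 0.70, 0.55 and 0.21 in UV-B and -0.47, -0.77 and -1.38 in blue light, with no call against darkness (adjusted p = 0.235 and 0.0931).

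ATGSTF9, another phi-class glutathione transferase, differed among its own 13 probes. In UV-A, 9 of them had negative means and 7 had all 3 arrays below 0, as had 26% of all probes. The means ran from -1.86 to 0.79 with a median of -0.74. Only probe 597 was called, with -0.88, -2.73 and -1.66 in UV-A, a fall by 1.76 ± 0.415 on the log2 scale (limma adjusted p = 0.0449). Its blue values of 0.07, -1.66 and -2.01 and its UV-B values of -0.60, -1.00 and -0.82 overlapped with those of UV-A in part. The call was lost with saturated spots left out (adjusted p = 0.0995), and without UV-A replicate 1, 2 or 3 (0.071, 0.296 and 0.172), UV-B replicate 1 or 2 (0.0727 and 0.0573) or blue replicate 2 (0.0517). With the replicate block, 6 of the 13 probes were called lower in UV-A, where 11.1% of all probes were called in either direction. The block's p-values against darkness can be too small, and the 13 probes share 1 name, so these calls are not independent. The brightest probe, 2630, gave -1.27, -1.46 and -0.71 in UV-A (mean -1.15, adjusted p = 0.0542). Probes 1296, 1299, 1801 and 595 had positive means in UV-A. ATGPX6, a glutathione peroxidase, was not called, with means of 0.48 to 0.74 over its 3 probes in UV-B.

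**Figure D2:**
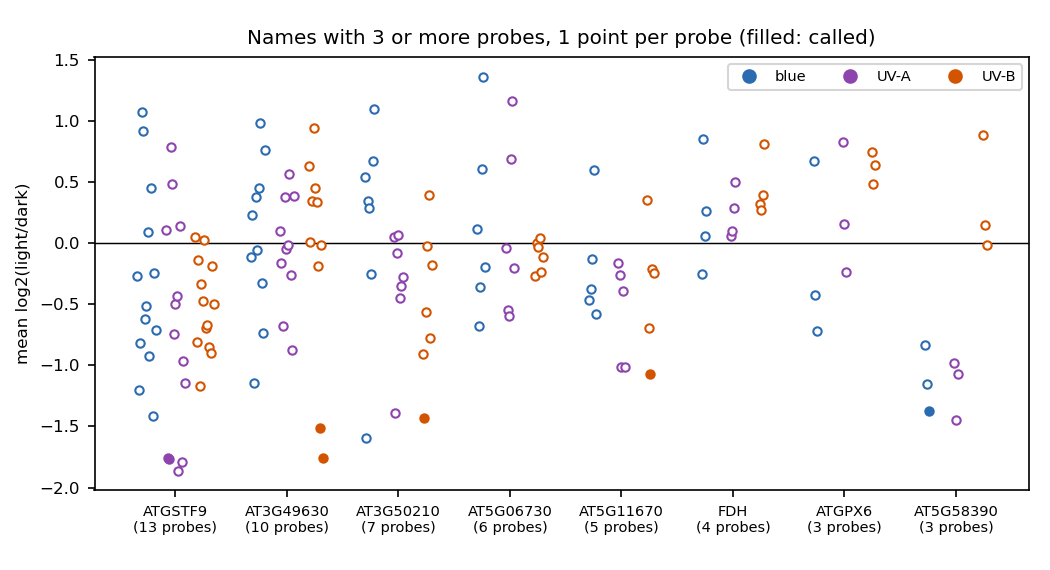
Mean log2(light/dark) of each probe, for the 8 names with at least 3 probes, in blue light, UV-A and UV-B, with called probes filled. AT3G50210 is shown with 7 of its 8 probes, since the eighth carries another name. The 13 ATGSTF9 probes spread from -1.86 to 0.79 in UV-A, and the 10 AT3G49630 probes from -1.76 to 0.94 in UV-B.

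Class III peroxidases, which are secreted and use hydrogen peroxide to oxidise phenolics, gave 1 call in blue light and 1 in UV-B among 12 probes. Each is 8.33% of these probes, against 3.47% of all probes in blue light and 24.7% in UV-B. AT5G58390 gave -0.86, -1.15 and -2.12 in blue light on its brightest probe 1560. In UV-A it gave -1.28, -0.69 and -1.23 and in UV-B 0.33, -0.69 and 0.30. All blue arrays were below 0 and below the lowest UV-B array, and the UV-A and UV-B ranges met near -0.69. The fall in blue light was 1.38 ± 0.318 on the log2 scale (adjusted p = 0.0447), and the other probes gave -0.83 and -1.15, which were not called. The call was lost when any single blue or UV-A array or UV-B replicate 1 was left out, with adjusted p between 0.0506 and 0.281, and the value was -1.00 without blue replicate 3.

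AT3G49110 gave 0.90, 0.40 and 1.34 in UV-B, against -0.30 to 0.35 in blue light and -0.63 to 0.44 in UV-A. UV-B replicate 2 lay inside the UV-A range, and the probe had saturated spots. The rise in UV-B was 1.84-fold (log2 0.88 ± 0.294, adjusted p = 0.0476), and it was kept in 9 of 21 alternatives. It was lost without any UV-A array, without blue replicate 1 or 2, and without UV-B replicate 1 or 3, with adjusted p from 0.0524 to 0.272. PRXCB, another class III peroxidase, gave 0.73, 0.47 and 1.07 in UV-B, -0.69, -0.73 and -0.29 in UV-A and 0.32, -0.47 and -0.18 in blue light. Its UV-B arrays stood above all others, but neither the mean of 0.76 against darkness (adjusted p = 0.0543) nor the difference of 1.33 from UV-A (0.0537) passed. As a single-probe name in the fit on name means, PRXCB passed both tests (adjusted p = 0.0348 and 0.04). AT5G64120 ranged from -1.81 to 3.86 over the 9 arrays, highest on replicate 3 and lowest on replicate 2 in each light, and its mean in blue light of 1.48 was 0.30 without replicate 3. The 6 probes of AT5G06730 had means from -0.27 to 0.04 in UV-B.

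Other oxidoreductases held 12 of the 19 calls in UV-B, 7 higher and 5 lower among 46 probes. That is 26.1% of these probes, near the 24.7% of all probes. AT1G51720 is named only as an oxidoreductase and gave the highest mean of all members in UV-B. Its values were 2.89, 0.36 and 3.91 in UV-B, 1.43, -0.15 and 2.80 in UV-A and 1.22, 0.94 and 3.66 in blue light. Replicate 3 was the highest in each light, and the 3 lights overlapped. The rise against darkness in UV-B was 5.23-fold (log2 2.39 ± 0.702, limma adjusted p = 0.0281). Without UV-B replicate 3 it was 1.63 (adjusted p = 0.235), without replicate 1 it was 2.13 (0.145), and without replicate 2 it was 3.40 (0.00768).

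AT1G65930, an NADP-dependent isocitrate dehydrogenase, gave 0.77, 1.15 and 3.43 in UV-B on its probe 2671, and -0.25, 0.39 and 2.81 in blue light. Replicate 3 was the highest in each light, and the rise of 3.44-fold (log2 1.78 ± 0.589, adjusted p = 0.0452) became 0.96 (adjusted p = 0.365) without UV-B replicate 3. Leaving out either other UV-B array or any UV-A array also ended the call, with adjusted p from 0.0512 to 0.0668. Its brighter probe 1094 gave 0.75, 0.90 and 1.29 (mean 0.98, adjusted p = 0.0542), and AT5G14590, of the same enzyme type, 0.86, 0.72 and 1.29 (mean 0.96, adjusted p = 0.0563). These 2 probes lay close to the threshold with little spread among the UV-B arrays.

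EMB1467, a subunit of respiratory complex I, gave 2.05, 0.46 and 1.43 in UV-B, 0.95, 0.41 and 0.73 in UV-A and 0.62, 0.26 and -0.19 in blue light. It rose 2.49-fold in UV-B (log2 1.31 ± 0.317, adjusted p = 0.0111), although UV-B replicate 2 lay within the values of both other lights. Without UV-B replicate 1 or 3 the adjusted p was 0.112 and 0.0719. ALDH10A8, an aldehyde dehydrogenase, was even across the UV-B arrays at 0.91, 1.02 and 0.96 (log2 0.96 ± 0.278, adjusted p = 0.0259). All 3 lay above the other 6 arrays, yet each left-out UV-B array ended the call (adjusted p = 0.0992, 0.0821 and 0.106). AT1G75200, named as an FMN-binding oxidoreductase, gave 0.49, 1.23 and 1.03 in UV-B against -0.41 to 0.28 elsewhere (log2 0.92 ± 0.263, adjusted p = 0.0249). Without UV-B replicate 2 or 3 its adjusted p was 0.116 and 0.123.

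AT3G12800, named as an oxidoreductase, rose on both of its probes. The brighter probe 341 gave 1.66, 1.16 and 1.87 in UV-B, 0.60, 1.02 and 0.51 in UV-A and 0.20, 0.21 and 2.00 in blue light. UV-B stood above UV-A on every array, while blue replicate 3 exceeded all UV-B values. Its rise was 2.95-fold (log2 1.56 ± 0.351, adjusted p = 0.00749), and that of probe 2082 was 2.21-fold (log2 1.14 ± 0.298, adjusted p = 0.0166). Without UV-B replicate 1 or 3 the adjusted p was 0.0535 and 0.0663 for probe 341 and 0.152 and 0.0663 for probe 2082.

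**Figure D3:**
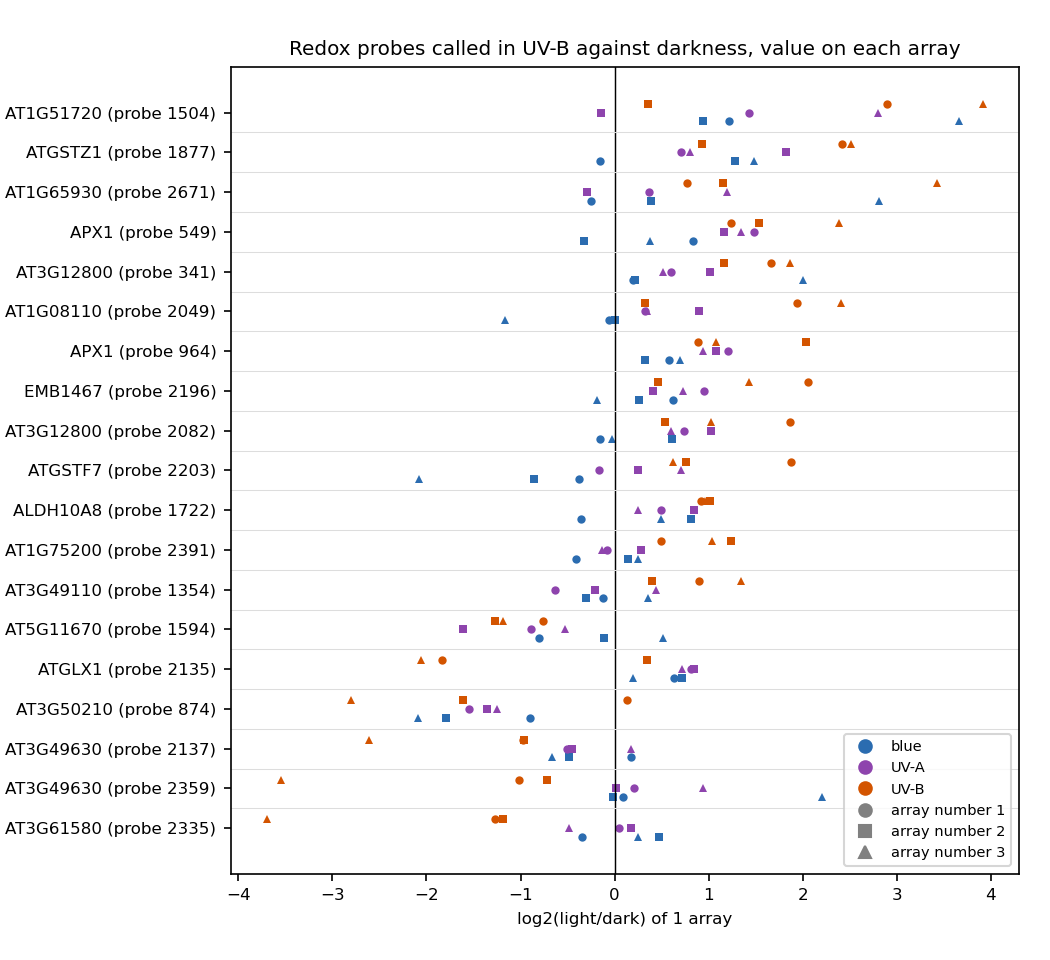
Log2(light/dark) on each of the 9 arrays for the 19 member probes called in UV-B against darkness, with the light given by colour and the array number by symbol. The UV-B values of both APX1 probes lie at 0.89 or above on all 3 arrays, while those of ATGLX1 probe 2135 and AT3G50210 probe 874 fall on both sides of 0.

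The largest fall in UV-B among the members was that of AT3G61580, named as a sphingolipid desaturase. It gave -1.27, -1.18 and -3.70 in UV-B, 0.05, 0.18 and -0.48 in UV-A and -0.35, 0.47 and 0.25 in blue light. No UV-B array overlapped with the other lights. The fall was 2.05 ± 0.429 on the log2 scale (n = 3, adjusted p = 0.00512), and the call held in all 20 alternatives that could be run for this probe. Its size did not, since it was -1.22 without UV-B replicate 3 (adjusted p = 0.0362) and -2.93 with plain background subtraction. The light channel was above background on 1 of 3 UV-B arrays, with a foreground of 354 over a background of 308 on replicate 1, so the size of the fall is uncertain. On UV-B replicate 3, 99.3% of spots without a clone also passed this mark in the light channel. A pass on that array therefore does not show signal.

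AT3G49630, named as an isopenicillin-N-synthase-type oxidoreductase, fell on 2 of its 10 probes in UV-B. Probe 2359 gave -1.01, -0.71 and -3.54 in UV-B, 0.20, 0.02 and 0.94 in UV-A and 0.09, -0.02 and 2.20 in blue light, and probe 2137 gave -0.97, -0.96 and -2.61 in UV-B. Neither probe's UV-B values overlapped with those of the other lights. The falls were 1.76 ± 0.539 (adjusted p = 0.0337) and 1.51 ± 0.348 (adjusted p = 0.0084) on the log2 scale. Without UV-B replicate 3 they were -0.86 (adjusted p = 0.314) and -0.97 (0.0917), and probe 2359 had an adjusted p of 0.0621 without UV-B replicate 1. In the authors' values the fall of probe 2137 was -0.93. The light channel of probe 2359 was above background on 1 of 3 UV-B arrays, a mark that 99.3% of spots without a clone passed on UV-B replicate 3. The other 8 probes were not called and ranged from -0.18 to 0.94, with 0.35 for the brightest, 619.

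AT3G50210 had 8 probes, of which 7 are named only as an oxidoreductase and 1 has the annotated type of AT3G49630. Their median was -0.67 in UV-B, and 1 of the 7 was called. That probe, 874, gave 0.13, -1.62 and -2.80 in UV-B, -1.55, -1.36 and -1.25 in UV-A and -0.90, -1.79 and -2.09 in blue light. It was low in all lights, and its UV-B arrays lay on both sides of 0. Its fall in UV-B of 1.43 ± 0.444 on the log2 scale passed (adjusted p = 0.0357), while similar means of -1.39 in UV-A and -1.59 in blue light did not (adjusted p = 0.113 and 0.0685). Without UV-B replicate 3 the value was -0.74 (adjusted p = 0.318), and without UV-B replicate 2 or UV-A replicate 1 the adjusted p was 0.123 and 0.0516. Without UV-B replicate 1, the array above 0, the value was -2.21, and in the authors' values it was -0.92. AT5G11670, an NADP-dependent malic enzyme, fell by 1.07 ± 0.311 on the log2 scale in UV-B (adjusted p = 0.0269) on 1 of 5 probes, 1594, with -0.76, -1.27 and -1.19. Its UV-A values of -0.89, -1.61 and -0.53 overlapped with these, and leaving out UV-B replicate 1, 2 or 3 gave adjusted p of 0.0673, 0.105 and 0.13. For probes 874 and 1594 the light channel was above background on 2 of 3 UV-B arrays, and a pass on replicate 3 does not show signal.

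In blue light the highest-lying oxidoreductase other than AT1G51720 was NQR, a quinone oxidoreductase. It gave 1.11, 0.53 and 3.43 in blue light, 0.32, 0.67 and 1.90 in UV-A and 0.15, -0.67 and 0.12 in UV-B. Both blue light and UV-A lay above every UV-B array. Its mean of 1.69 in blue light missed the threshold (adjusted p = 0.073) and was 0.82 without blue replicate 3 (adjusted p = 0.45). It passed with the replicate block (adjusted p = 0.0113) and not with the number as a random block (0.0589), and the adjusted p ranged from 0.0113 to 0.45 over the alternatives. FDH, the formate dehydrogenase of mitochondria, was not called on any of its 4 probes, whose UV-B means ran from 0.27 to 0.81.

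The difference between UV-B and blue light was called for 7 members, 5 higher and 2 lower in UV-B, or 7.69% against 18.3% of all probes (8.06% higher and 10.3% lower). The share among the members was below that background, and no test of this difference in shares was made. The median difference was 0.32 in log2 over members and 0.02 over all probes. With the replicate block, 19 members were called (20.9%), 10 higher and 9 lower, against 28.8% of all probes. In 28 members (19 above and 9 below) the UV-B arrays did not overlap with the blue arrays (30.8%, against 36.2% of all probes).

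ATGSTF7 differed on both probes, by 2.19 ± 0.515 for probe 2203 (adjusted p = 0.016) and 1.36 ± 0.388 for probe 2221 (adjusted p = 0.0331). AT1G08110 differed by 1.97 ± 0.547 (adjusted p = 0.0295) and APX1 probe 549 by 1.42 ± 0.429 (adjusted p = 0.0403). AT4G05390, named as an oxidoreductase, gave 0.27, 0.45 and 0.62 in UV-B and -0.68, -0.36 and -1.68 in blue light on its probe 2764. Its difference was 1.35 ± 0.413 (adjusted p = 0.042), with no call against darkness in either light (adjusted p = 0.301 and 0.0988), and its brighter probe 1803 had the opposite order (means -0.70 and 0.22). AT3G61580 was lower in UV-B by 2.17 ± 0.607 on the log2 scale (value -2.17, adjusted p = 0.0301), and AT3G49630 probe 2359 by 2.51 ± 0.763 (value -2.51, adjusted p = 0.0408). In all 7 the UV-B and blue arrays did not overlap, which is no further support, since the same arrays gave the calls. The sizes of the falls rested in part on the arrays numbered 3. Without UV-B replicate 3 the difference was -1.35 for AT3G61580 and -1.62 for AT3G49630, and with arrays numbered 1 and 2 only it was -1.29 and -0.90. Without blue replicate 3 it was -1.79 for AT3G49630. AT1G08110 differed by 1.16 with arrays numbered 1 and 2 only and by 2.58 without UV-B replicate 2. The call of ATGSTF7 probe 2203 was lost only without UV-B replicate 1 (adjusted p = 0.0665, value 1.79), and each of the other 6 was lost under at least 5 alternatives, with leaving out blue replicate 3 (adjusted p from 0.0704 to 0.136) or UV-B replicate 3 (0.057 to 0.131) ending all 6. Of the 7 calls, 6 remained without blue replicate 1, 4 without blue replicate 2, UV-A replicate 2 or UV-B replicate 2, 3 without UV-A replicate 1 or 3, and 1 without UV-B replicate 1.

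UV-B and UV-A did not differ at the threshold for any member, against 6.62% of all probes (2.03% higher and 4.59% lower), with 13 members at an unadjusted p under 0.05 (14.3%, against 24.2% of all probes). With the replicate block 6 members were called (6.59%, against 15.1%). The nearest were PRXCB, given above, and AT3G61580 (difference -1.96, adjusted p = 0.075). In 23 members the UV-B and UV-A arrays did not overlap (25.3%, against 33.9% of all probes), 14 with UV-B above. UV-A and blue light gave no call for any member, and 0% of all probes were called in that comparison, with 3 members at an unadjusted p under 0.05 (3.3%, against 3.19% of all probes). The UV-A arrays lay above blue for 6 members and below for 1 without overlap, or 7.69% against 9.33% of all probes.

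**Figure D4:**
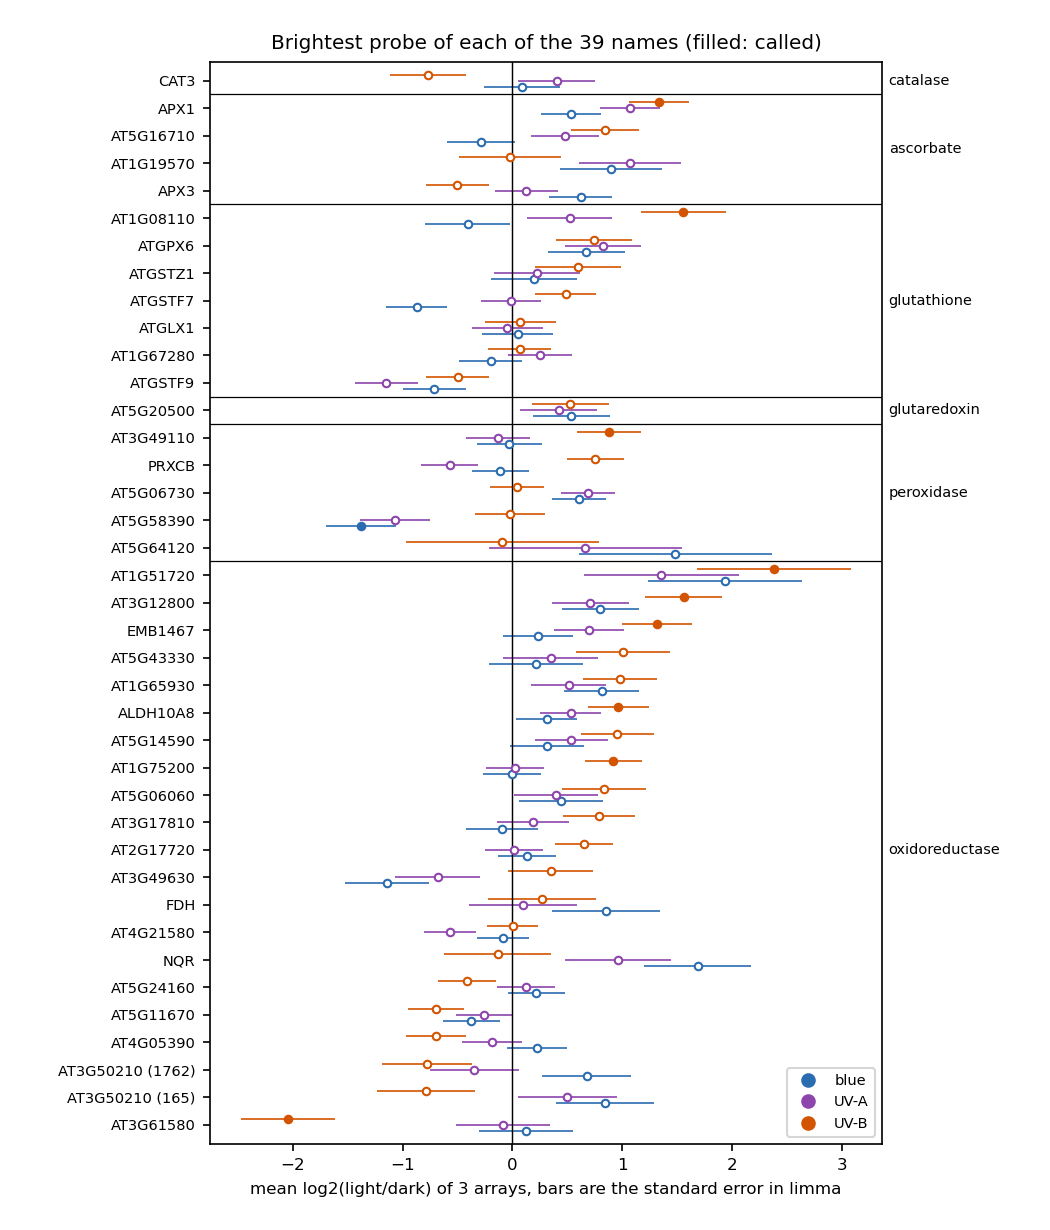
Mean log2(light/dark) in blue light, UV-A and UV-B for the brightest probe of each of the 39 member names, grouped by role, with standard errors and called means filled. APX1 and AT3G12800 lie above 1 in UV-B, and AT3G61580 lies at -2.05 in UV-B with means near 0 in both other lights.

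Other genes of redox defence, taken from a list of names the rule leaves out and related genes, comprised 57 probes of 12 names. In UV-B, 6 of these probes rose and 24 fell (52.6% called, against 24.7% of all probes, 10.8% higher and 13.9% lower). All 24 falls were of the peroxidase PRXR1, which has 29 probes. Rises were called on 2 of 3 probes of CSD1, the copper-zinc superoxide dismutase, on 1 of 3 of its copper chaperone CCS1, on the single ATGSTU13 probe and on both probes of ATGSTF3. No rise or fall was called for the manganese superoxide dismutase MSD1 (mean -0.43), the metallothionein MT2A (8 probes, median 0.02) or the sulfite reductase SIR (5 probes, median 0.70). In blue light 1 of the 57 probes was called higher (1.75%, against 3.47% of all probes called). In UV-A 1 was called higher and 1 lower (3.51%, against 3.19% of all probes).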

How the data were processed

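The members, lists and tests were chosen with earlier results of these data known. Per the file headers, the authors' deposited array files hold foreground and background intensity values of both dyes for 6272 spots, and a score of 0 or 1 (a spot weight) whose meaning is not stated. Only spots of weight 1 were used. No source used here names the scanner or its software. The authors also deposited log2 values whose normalization is not stated. Set against the scanner values, their correlations with log2(light/dark) were -0.963 to -0.854. They run as dark over light, their sign was turned, and their column medians lay between -0.165 and 0.047. They served as an alternative. Split-control arrays of dark RNA that the series' design text mentions were not analysed here.

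Background was corrected with limma's normexp (offset 50) and ratios were normalized by loess within each array (limma 3.58.1, R 4.3.3), and spots of a probe were averaged. Probes needed a foreground of 1.5 times the background in at least 3 arrays, which removed none of 2507. All 9 arrays entered a single limma fit with 1 mean for each light. Each light was tested against 0 and against the other lights, two-sided, with Benjamini-Hochberg adjustment over all 2507 probes, and a probe was called at an adjusted p under 0.05. Values are log2(light/dark), and ± gives limma's standard error. Its spread is estimated over all 9 arrays and drawn toward that of the other probes, so it is not the error within 1 light. There were 3 arrays a light, a number that limits the precision. The procedure was tested on simulated data. Figures were drawn with matplotlib 3.10.9 in Python 3.11.15.

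Full values are given for names with a called probe (the 10 with the largest change where over 10 were called) and for the brightest name of a role without a call. Further members are named with shorter values. Of several probes under a name, every probe was counted. Names are the Arabidopsis matches in the deposited annotation, and 0 of 38 member symbols were found in the turnip gene table, which leaves positions and sequences out. Related transcripts can bind the same cDNA spot, which was not tested.

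Same-numbered arrays of different lights deviated together (correlations of deviations from the light means of 0.105 to 0.622, all above 0.1). The main fit did not use the number. A fit with the number as a block was run as an alternative, and its counts are printed. The titles do not say what a number marks. A fixed block takes the variation between numbers out of the error of a mean against 0, so that its p-values against darkness can be too small.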

Additional observations from a re-analysis of the deposited data

Results flagged for a closer look

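For 7 member probes the response to UV-B differed from that to blue light by the test of the difference itself. In log2, the difference (UV-B minus blue) was 1.42 for APX1 probe 549, 1.97 for AT1G08110 and 1.35 for AT4G05390 probe 2764. For ATGSTF7 it was 2.19 on probe 2203 and 1.36 on probe 2221. It was -2.17 for AT3G61580 and -2.51 for AT3G49630 probe 2359, and with arrays numbered 1 and 2 only these were -1.29 and -0.90 and AT1G08110 was at 1.16. The adjusted p-values lay between 0.016 and 0.042. All 3 UV-B arrays were on one side of all 3 blue arrays in each case, as they were for 36.2% of all probes. The same arrays gave the calls, so this is no further support. In AT3G61580 and AT3G49630 probe 2359 the light channel was above background on 1 of 3 UV-B arrays. On UV-B replicate 3, 99.3% of spots without a clone passed that mark too, so a pass there does not show signal. Groups of 3 arrays are too small for a test of single outlying arrays.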

How the results depend on the processing

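All 29 called values kept their direction in every alternative run for them. In UV-B against darkness only 3 of 19 calls (both APX1 probes and AT3G61580) passed in all that were run. The stricter filter on dim probes left only 15 of these 19 calls to test. It left out AT3G61580, AT3G49630 probe 2359, AT3G50210 probe 874 and AT5G11670 probe 1594, so these calls were not tested there. Of the calls in blue light (1), UV-A (2) and UV-B minus blue (7), none passed in all. The alternative without the filter on dim probes is the main fit again, so its agreement is no test. Counts of called members changed as follows, with the share of members and of all probes called given for the larger moves. In blue light (1 in the main setting) the count was 0 with plain background subtraction, median centring, only the arrays of the light compared or arrays numbered 1 and 2, 15 (16.5%) with the replicate block (all probes 16.1%, from 3.47%), and 0 to 2 with 1 array left out. In UV-A (2) it was 1 with plain subtraction, ignored spot weights or saturated spots left out, 4 with print-tip loess, 8 (8.79%) with the authors' values (all probes 4.75%), 16 (17.6%) with the replicate block (11.1%), 5 with only the UV-A arrays or a random block, 0 with arrays numbered 1 and 2, and 0 to 5 with 1 array left out. In UV-B (19) it was 30 (33%) with the authors' values (all probes 30.4%), 11 (12.1%) with only the UV-B arrays (19.1%), 8 (8.79%) with arrays numbered 1 and 2 (16.8%), of which 7 were among the 19, and 4 to 25 with 1 array left out. The 4 came without UV-B replicate 3 (3 of the 19, with 10.8% of all probes called), and without UV-B replicate 1 there were 7 (6 of the 19, with 13.1%). For UV-B minus blue (7) the count was 11 with plain subtraction, 15 (16.5%) with print-tip loess (all probes 20.8%) or the authors' values (23.2%), 19 (20.9%) with the replicate block (28.8%), 17 (18.7%) with a random block (29.3%), 1 (1.1%) with only these 2 lights (11.7%) or with arrays numbered 1 and 2 (7.42%), and 1 to 10 with 1 array left out. For UV-B minus UV-A (0) it was 2 with plain subtraction or a stricter filter on dim probes, 1 with median centring, ignored weights or only these 2 lights, 6 (6.59%) with the replicate block (all probes 15.1%), 3 with a random block (14.2%), and 0 to 3 with 1 array left out. UV-A minus blue stayed at 0 throughout. The random block (consensus correlation 0.256) and the restriction to arrays numbered 1 and 2 were chosen after seeing the data. With the mean over a name's probes in place of its brightest probe, the called names among the 39 members changed. They went from 1 to 0 in blue light, from 0 to 1 (APX1) in UV-A and from 9 to 13 in UV-B. Between lights they went from 3 to 4 in UV-B minus blue and from 0 to 1 (PRXCB) in UV-B minus UV-A. Of all 1195 names, the fit on means called 4.27% in blue light, 2.01% in UV-A and 25.5% in UV-B. It called 18.5% in UV-B minus blue and 5.77% in UV-B minus UV-A. Reversals of direction were looked for in the called values and in the brightest probe of each name, in the light with its largest change. Within that set, direction reversed for 2 uncalled values. FDH probe 474 in blue light was -0.12 without blue replicate 3 (range -0.12 to 1.40 with 1 array left out, and -0.12 with arrays numbered 1 and 2). ATGLX1 probe 459 in UV-B was -0.20 without UV-B replicate 3 (range -0.20 to 0.22, and -0.20 with arrays numbered 1 and 2). Uncalled values outside that set can reverse too. For example, AT5G64120 in UV-A went from 0.66 to -0.52 with arrays numbered 1 and 2. The replicate block ended no call of the main setting. The cause of these changes was not tested. Fits on fewer arrays also have a poorer estimate of the spread, and the part of this in the lost calls was not tested. Signal over background was lowest in the light channel of UV-B replicate 1 (median ratio 3.57), which limits what falls in UV-B can show.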
